A study of Homo sapiens with 6 samples.

Results

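The interleukin 24 gene (IL24), the 3 other cytokine genes that lie with it on chromosome 1q32 (IL10, IL19 and IL20) and 4 receptor chains (IL20RA, IL20RB, IL22RA1 and IL10RB) were followed in RNA-seq of DU145 cells. These 8 genes were found by symbol among the 19727 genes of the deposited table, and each had a single row. IL24 was selected on its level in this same comparison, so its values are given as a description with no test. The other 7 were selected by family, with earlier results of these data known.

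The DU145 line is an established cell line from a human prostate cancer. The study asked what overexpression of circCSPP1, a circular RNA made from exons of CSPP1, changes in these cells. The 2 groups were cells that received lentivirus-circCSPP1 (genotype circCSPP1 overexpression, labelled OE) and cells that received the control virus, lentivirus-NC (genotype normal, labelled NC). Each group had 3 libraries, and both had been made into stable lines under puromycin. The labels do not say whether the 3 libraries of a group came from separate cultures, so the p-values measure only the spread between these libraries, which may be technical, and the effect of circCSPP1 cannot be told apart from other differences between the stable lines.

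IL24, IL20, IL19 and IL10 are secreted cytokines of the class II family. IL24 and IL20 bind the type I receptor, a pair of IL20RA and IL20RB, and the type II receptor, a pair of IL22RA1 and IL20RB, while IL19 binds the type I receptor alone. IL20RB is therefore the chain that both receptors of IL24 share. IL10RB is the common chain of the receptors for IL10, IL22, IL26 and the lambda interferons, and it is not part of the IL24 receptors. The receptors act through Janus kinases and STAT3, and in skin and other epithelia the IL20 subfamily is known for inducing antimicrobial and wound repair genes. IL24 was first described as a gene of differentiating melanoma cells and is known for its effects on the survival of tumour cells.

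The values are FPKM, fragments per kilobase of transcript scaled to the size of the library, so levels of different genes can be set side by side per length. The libraries held between 28800000 and 36600000 fragments, as read from the steps between low values, and the depths of the groups overlapped. Correlations of log2(FPKM + 1) across genes, which are not independent replicates, were 0.9914 to 0.9915 between the lentivirus-NC libraries and 0.9697 to 0.9898 between the lentivirus-circCSPP1 libraries, where replicate 1 stood apart from the other two. The epithelial keratin KRT8 was present at 1110 ± 26.4 FPKM in lentivirus-NC and the prostate luminal genes KLK3 and KLK2 were listed at 0 in all 6 libraries. Of the 14 leukocyte markers, CD3D, CD3E and MS4A1 were listed at 0 throughout, the pan-leukocyte gene PTPRC reached at most 0.08 FPKM, and the list summed to between 47.5 and 53.4 FPKM in lentivirus-NC and between 37.6 and 52.3 FPKM in lentivirus-circCSPP1, nearly all of it CD68, a lysosomal protein that is not restricted to leukocytes.

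Sequences before the starts of IL24 and IL20RB, the cytokine and the receptor chain whose levels were higher with lentivirus-circCSPP1, are shown from RefSeq on GRCh38.p14. The 250 bases before IL24 lie at chr1:206897193-206897442 on the plus strand, and the capitals mark the letters TATATA, which begin 29 bases before the start. For IL20RB, the 132 bases at chr3:136957733-136957864, plus strand, reach up to the first exon of its coding transcript in GENCODE.
IL24 promoter: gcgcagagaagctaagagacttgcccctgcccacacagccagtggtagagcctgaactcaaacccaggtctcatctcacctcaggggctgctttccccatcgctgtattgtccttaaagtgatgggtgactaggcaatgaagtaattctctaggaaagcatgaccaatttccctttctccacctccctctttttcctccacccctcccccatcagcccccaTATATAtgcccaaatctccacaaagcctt
IL20RB promoter: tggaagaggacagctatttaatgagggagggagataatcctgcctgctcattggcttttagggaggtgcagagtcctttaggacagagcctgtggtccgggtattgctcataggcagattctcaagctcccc

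Both strands of the 250 bases were searched for 5 motifs: AP-1 (TGANTCA), C/EBP (TTGCNNAA), STAT (TTCNNNGAA), EGR1 (GCGNGGGCG) and the composite C/EBP-ATF element (TGATGNAA). None of these letters occurred before IL24. The 250 bases before IL20RB held 1 match, to the C/EBP-ATF element, which begins 76 bases before the RefSeq start and falls inside the first exon of the GENCODE transcript. It is shown in capitals within the 28 bases at chr3:136957897-136957924.
IL20RB site: cactccctgcTGATGCAAcatctgggtt
Of 35116 RefSeq promoter windows of the same length, 6.57% held the AP-1 letters, 9.05% the C/EBP letters, 6.57% the STAT letters, 8.41% the EGR1 letters and 3.14% the C/EBP-ATF letters. A form of the TATA box (TATANA), looked for after the IL24 sequence had been read, was in 17.7% of the windows. A match of letters is a description of the sequence and not a measured binding site.

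IL24 was the most abundant of the 4 cytokines and the only one with a value above 0. It lies at chr1:206897443-206904139 (GRCh38, plus strand), with 7 transcripts in GENCODE, 5 of them coding. In lentivirus-NC, replicates 1 to 3 had IL24 levels of 5.44, 6.56 and 5.19 FPKM. In lentivirus-circCSPP1, replicates 1 to 3 had levels of 41.27, 43.01 and 43.17 FPKM. The groups were far apart and the 3 libraries within each group were close together. The mean level went from 5.73 ± 0.73 to 42.5 ± 1.05 FPKM (SD, n = 3 per group), a ratio of 7.41 and a difference of 2.70 in log2(FPKM + 1). Of the 12322 genes that averaged 1 FPKM or more it had the largest rise on this scale. Within a library, 51.7% to 54.1% of all genes lay below IL24 in lentivirus-NC, and 85.5% to 85.9% of genes lay below it in lentivirus-circCSPP1. At the longest coding transcript, 1819 nt, the levels correspond to about 287 to 346 fragments per lentivirus-NC library and 2262 to 2723 fragments per lentivirus-circCSPP1 library. A bulk value cannot tell whether more cells made IL24 or each cell held more of its RNA.

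IL20, the nearest family member, IL19 and IL10, an anti-inflammatory cytokine of leukocytes, were listed at 0 in all 6 libraries. At the depth of these libraries, 3 fragments on the longest coding transcript would have given between 0.0503 and 0.0671 FPKM, and this limit covers counting error only. IL24 thus differed in level from the other cytokine genes, although the 4 lie within 1 stretch of chromosome 1. IL20 lies 28220 bp, IL19 54462 bp and IL10 124949 bp from IL24.

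**Figure D1:**
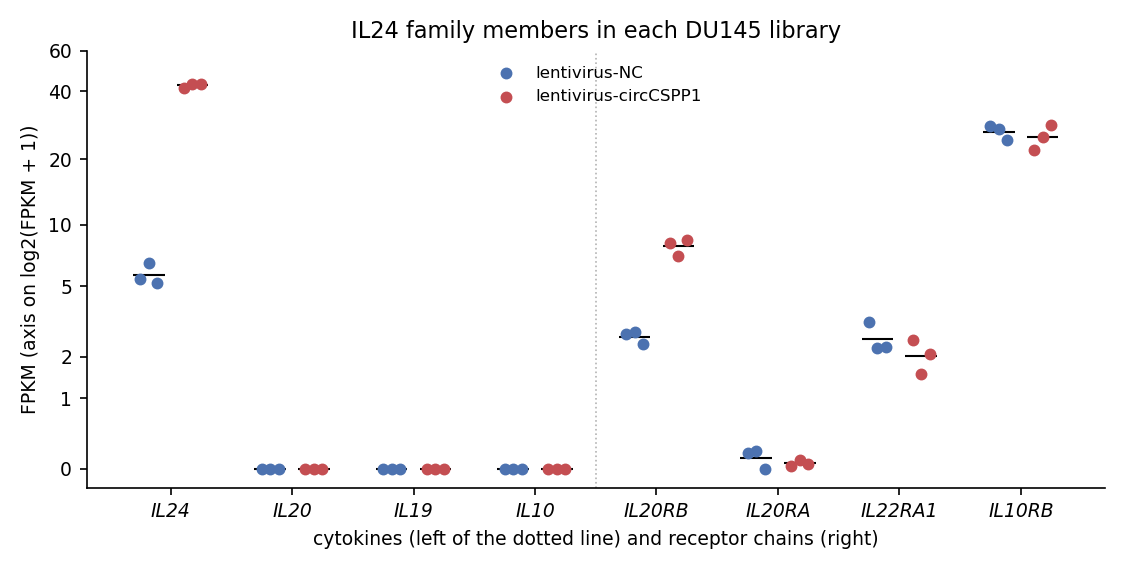
FPKM of the 8 genes in each library, on an axis of log2(FPKM + 1), with lentivirus-NC in blue, lentivirus-circCSPP1 in red, 1 point per library and black lines at the group means on that scale. IL24 and IL20RB are separated by group, IL22RA1 and IL10RB overlap between groups, IL20RA is below 0.2 FPKM, and IL20, IL19 and IL10 are at 0.

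Among the receptor chains, IL20RB rose with lentivirus-circCSPP1. IL20RB was at 2.76, 2.83 and 2.40 FPKM in lentivirus-NC and at 8.17, 7.06 and 8.52 FPKM in lentivirus-circCSPP1, so the groups did not overlap. Its mean went from 2.66 ± 0.231 to 7.92 ± 0.762 FPKM (SD, n = 3 per group), a ratio of 2.97. On log2(FPKM + 1) the difference was 1.28 with a standard error of 0.117 and a 95% interval of 1.01 to 1.55 (limma, adjusted p = 0.0021 with Benjamini-Hochberg adjustment over all tested genes). The exact two-sided permutation test gave p = 0.10, the smallest that 3 libraries against 3 allow. IL20RB ranked 25 of the 12322 tested genes by size of rise, and its values correspond to about 164 to 180 fragments per lentivirus-NC library and 502 to 539 per lentivirus-circCSPP1 library. The gene lies at chr3:136946230-137011085 on the plus strand, with 1 coding transcript, and its annotated span overlaps that of NCK1, an adaptor protein gene on the same strand. NCK1 was at 15.7 ± 0.905 and 16.7 ± 3.72 FPKM (SD, n = 3 in each group), a log2 difference of 0.06 (limma, adjusted p = 0.85).

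IL22RA1, which forms the type II receptor with IL20RB, was expressed at a low level in both groups. It lies at chr1:24119771-24143121 on the minus strand. Its values were 3.21, 2.27 and 2.32 FPKM in lentivirus-NC and 2.53, 1.53 and 2.10 FPKM in lentivirus-circCSPP1, and the groups overlapped. The log2 difference was -0.24 with a standard error of 0.165 and a 95% interval of -0.63 to 0.14 (limma, adjusted p = 0.38), so a rise like that of IL20RB lay outside the interval, while a modest fall did not.

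IL20RA, which forms the type I receptor with IL20RB, was close to the limit of detection. It lies at chr6:136999971-137045180 on the minus strand. Its values were 0.16, 0.19 and 0.00 FPKM in lentivirus-NC and 0.03, 0.09 and 0.05 FPKM in lentivirus-circCSPP1, which correspond to about 0 to 19 fragments per library. The groups overlapped, the mean lay below the filter of 1 FPKM, and a difference was not detectable at this depth. Without the filter the log2 difference was -0.08 with a standard error of 0.0749 (limma, adjusted p = 0.66).

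IL10RB was the most abundant of the receptor chains in each library. It lies at chr21:33266358-33310187 on the plus strand. Its values were 28.14, 27.25 and 24.29 FPKM in lentivirus-NC and 22.01, 25.21 and 28.35 FPKM in lentivirus-circCSPP1, with overlapping groups. The log2 difference was -0.08 with a standard error of 0.119 and a 95% interval of -0.36 to 0.20 (limma, adjusted p = 0.72). Without lentivirus-circCSPP1 replicate 1 it was 0.0118, so its sign is not fixed by these data. The span of IL10RB overlaps that of another annotated gene, AP000295.1, which had between 0.00 and 0.99 FPKM.

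Of the 3 tested members other than IL24, 1 passed an adjusted p of 0.05, against 11.4% of all tested genes, and it was higher, as were 4.69% of all tested genes, where 6.66% were lower. The groups of IL20RB did not overlap, which held for 36.4% of all tested genes. With 3 genes, such a count says little beyond IL20RB itself. The call of IL20RB held under all 17 alternatives of processing, with log2 differences between 1.23 and 1.57 and adjusted p between 0.00047 and 0.02 (limma).

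The order of the levels differed between the groups. In lentivirus-NC it was IL10RB with a mean of 26.6 FPKM, IL24 with 5.73, IL20RB with 2.66, IL22RA1 with 2.60 and IL20RA with 0.117, followed by the 3 cytokines at 0. IL20RB and IL22RA1 did not differ there beyond their spread, since their values overlapped. In lentivirus-circCSPP1 it was IL24 with a mean of 42.5 FPKM, IL10RB with 25.2, IL20RB with 7.92, IL22RA1 with 2.05 and IL20RA with 0.0567, and no neighbours among these overlapped. IL24 thus passed IL10RB, and IL20RB moved away from its partner chain.

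The balance of the type II receptor chains can be read from the ratio of their FPKM. IL20RB over IL22RA1 was 1.05 ± 0.196 in lentivirus-NC, with a range of 0.86 to 1.25, and 3.97 ± 0.695 in lentivirus-circCSPP1, with a range of 3.23 to 4.61 (SD, n = 3 in each group). The chains were thus about equally abundant at the RNA level in lentivirus-NC and unequal in lentivirus-circCSPP1 (exact two-sided permutation test, p = 0.10, the smallest possible). The ratio of IL24 to IL20RB, which carries the selection on IL24, went from 2.15 ± 0.175 to 5.40 ± 0.595, and that of IL10RB to IL20RB from 9.98 ± 0.304 to 3.20 ± 0.455 (SD, n = 3 in each group).

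**Figure D2:**
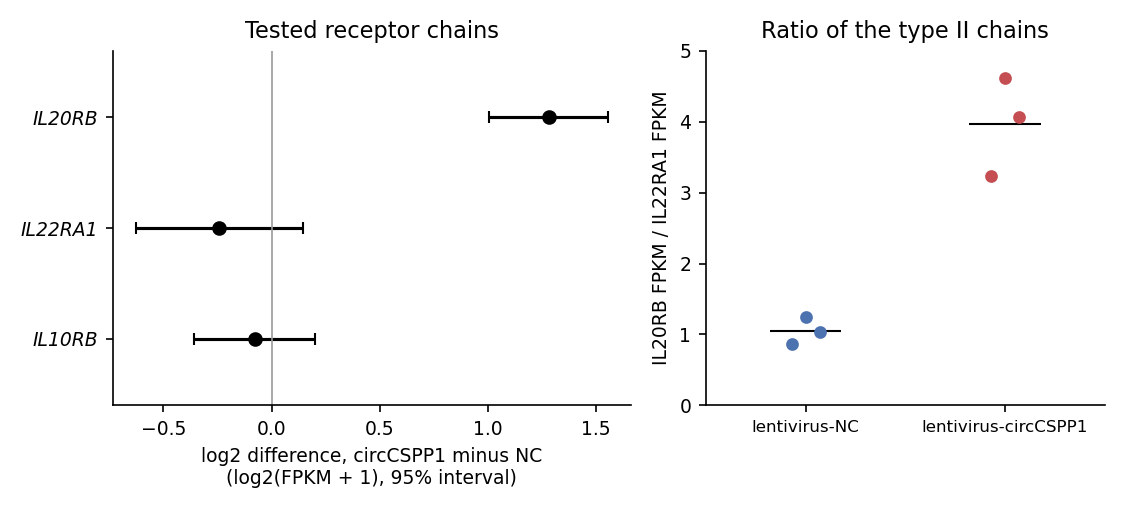
Left, log2 differences of the 3 tested receptor chains between lentivirus-circCSPP1 and lentivirus-NC on log2(FPKM + 1), with 95% intervals from limma; right, the ratio of IL20RB to IL22RA1 FPKM in each library, with black lines at the group means. The interval of IL20RB lies above 0, those of IL22RA1 and IL10RB include 0, and the ratio is 0.86 to 1.25 in lentivirus-NC and 3.23 to 4.61 in lentivirus-circCSPP1.

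Other protein-coding genes of the IL24 region did not share the size of its rise. Within 500 kb of IL24 there were 18 such genes in the table, of which 11 were tested, 2 were higher and 0 lower at an adjusted p of 0.05 (limma), against 4.69% and 6.66% of all tested genes. One of the 2 was FCMR, a receptor for immunoglobulin M known from lymphocytes, whose 3′ end faces that of IL24 from the opposite strand at a distance of 247 bp. FCMR was at 8.85, 3.51 and 4.84 FPKM in lentivirus-NC and at 19.87, 11.14 and 16.72 FPKM in lentivirus-circCSPP1. The groups did not overlap, and the log2 difference was 1.37 (limma, adjusted p = 0.032). Its adjusted p rose to at most 0.14 and passed 0.05 under 5 of the 17 alternatives, which included leaving out lentivirus-NC replicate 2 or 3 or lentivirus-circCSPP1 replicate 3. Whether the libraries kept the strand is not given in the sources used here, so fragments that run past the end of IL24 cannot be told apart from those of FCMR. The B cell marker MS4A1 was listed at 0 in all 6 libraries.

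The other gene that rose nearby was PFKFB2, an enzyme that controls fructose-2,6-bisphosphate, with 26.5 ± 1.11 and 35.3 ± 3.08 FPKM (SD, n = 3 in each group), a log2 difference of 0.40 (limma, adjusted p = 0.043). Its call was lost under 8 of the 17 alternatives, among them leaving out any library except lentivirus-circCSPP1 replicate 1, with adjusted p up to 0.18. CD55, a complement regulator, was at 27.0 ± 3.43 and 41.0 ± 6.89 FPKM, a log2 difference of 0.58 (limma, adjusted p = 0.0504), and it passed under 5 of the 17 alternatives, which were the 3 other scalings, the correction for GC content and length, and leaving out lentivirus-circCSPP1 replicate 1. MAPKAPK2, a kinase that stabilizes cytokine mRNAs, had a log2 difference of 0.12 (adjusted p = 0.40), and IKBKE, a kinase of interferon and NF-kappa B signalling, one of -0.43 (adjusted p = 0.067). DYRK3, EIF2D, YOD1, RASSF5, SRGAP2 and C1orf116 had log2 differences between -0.36 and 0.41 and did not pass. PIGR, FCAMR, C4BPB and C4BPA, which encode immunoglobulin receptors and complement regulators, had at most 0.29 FPKM in any library.

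**Figure D3:**
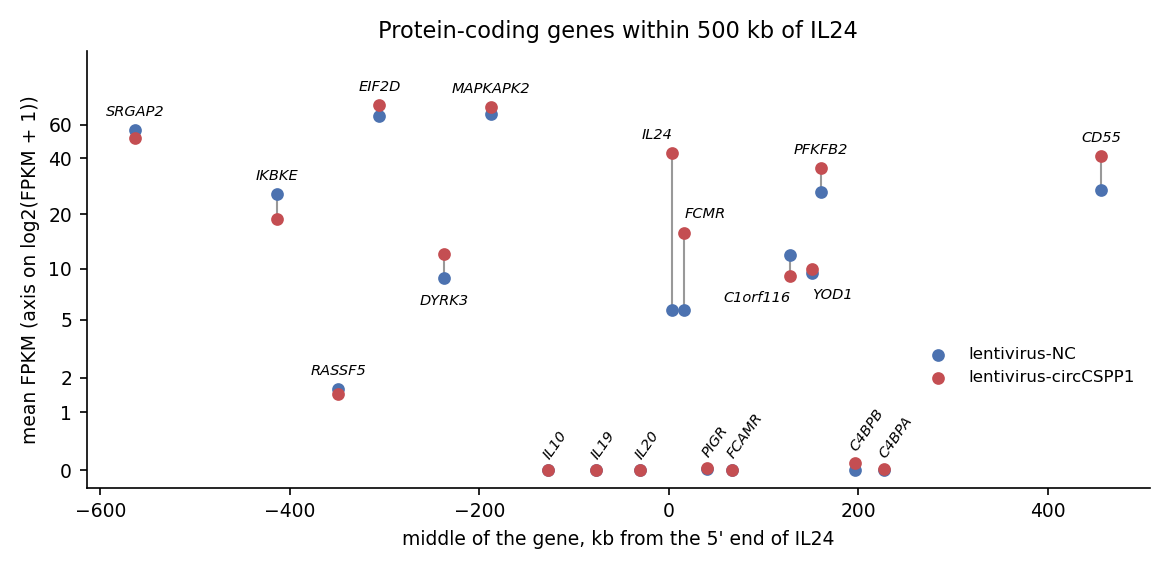
Mean FPKM of IL24 and of the protein-coding genes within 500 kb of it, on an axis of log2(FPKM + 1), against the distance of each gene's middle from the 5′ end of IL24 in kb, with lentivirus-NC in blue and lentivirus-circCSPP1 in red (n = 3 each) joined by a grey line. IL24 has the longest line, FCMR beside it the next, and IL10, IL19 and IL20 lie at 0.

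The receptor genes sit beside relatives of their own family, none of which passed in limma. Next to IL10RB on chromosome 21 lie IFNAR2, IFNAR1 and IFNGR2, chains of the interferon receptors, with log2 differences of 0.15, -0.29 and 0.18 (limma, adjusted p of 0.66, 0.37 and 0.19). Next to IL22RA1 lies IFNLR1, the lambda interferon receptor, at 11036 bp, with 5.77 ± 0.771 and 6.80 ± 1.45 FPKM (SD, n = 3 in each group) and a log2 difference of 0.19 (adjusted p = 0.48). Near IL20RA lie IL22RA2, a soluble decoy receptor for IL22 listed at 0, and IFNGR1, with a log2 difference of -0.16 (adjusted p = 0.69). Around IL20RB, which has no family member nearby, SLC35G2, a membrane protein gene at 90338 bp, rose with a log2 difference of 0.74 (adjusted p = 0.013, and up to 0.072 over the alternatives, past 0.05 with no moderation and without lentivirus-NC replicate 1 or 2 or lentivirus-circCSPP1 replicate 3). Among genes outside the family, FUCA1, a lysosomal fucosidase near IL22RA1, fell with a log2 difference of -0.57 (limma, adjusted p = 0.027), and MAP7, a microtubule-associated protein near IL20RA, with one of -0.70 (adjusted p = 0.011). The calls of FUCA1 and MAP7 were lost under 8 of 17 and 3 of 16 alternatives, with adjusted p up to 0.13 and 0.058, both without any 1 of the lentivirus-NC libraries and FUCA1 also without lentivirus-circCSPP1 replicate 2 or 3.

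Over the whole list of 16 other class II cytokines and receptors, 6 were tested. In limma, 0 passed in either direction, against 11.4% of all tested genes. None had an unadjusted p under 0.05 (limma), beside 3477 of all 12322 tested genes. With 6 genes, such counts say little. The median log2 difference was 0.07, beside -0.03 over all tested genes. IL22, IL26, IFNG, IFNL2, IFNL3 and IL22RA2 were listed at 0 in all libraries. IL10RA, which pairs with IL10RB for IL10, was at 0.69 ± 0.0954 and 0.41 ± 0.03 FPKM (SD, n = 3 in each group), and IFNE, an interferon of epithelia, at 0.70 ± 0.157 and 0.23 ± 0.111 FPKM, both under the filter and not tested. IFNGR2 passed as higher when lentivirus-circCSPP1 replicate 1 was left out (adjusted p = 0.023), and with no filter 1 gene of the list was lower.

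Janus kinases and STATs carry the signal from these receptors. All 11 were tested, and 0 were higher and 3 lower at an adjusted p of 0.05, against 4.69% and 6.66% of all tested genes, with a median log2 difference of -0.19 beside -0.03 over all tested genes. At an unadjusted p under 0.05 (limma), 0 were higher and 4 lower, beside 3477 of all 12322 tested genes in either direction. STAT3, the main STAT of the IL20 subfamily, was at 149.61, 153.03 and 155.85 FPKM in lentivirus-NC and at 103.94, 115.74 and 113.72 FPKM in lentivirus-circCSPP1. It fell in all 3 libraries below the lentivirus-NC range, with a log2 difference of -0.46 (standard error 0.0759, limma, adjusted p = 0.012). STAT2, a STAT of the type I and lambda interferon response, fell from 26.9 ± 1.88 to 15.2 ± 0.272 FPKM (SD, n = 3 in each group; log2 difference -0.79, standard error 0.0946, limma, adjusted p = 0.0047). STAT4, known from interleukin 12 signalling in lymphocytes, fell from 8.49 ± 0.555 to 4.58 ± 0.847 FPKM (log2 difference -0.78, adjusted p = 0.016). JAK1 and TYK2, the kinases that bind these receptors, had log2 differences of -0.12 and -0.17 (adjusted p of 0.47 and 0.46). Without any 1 of the lentivirus-NC libraries or without lentivirus-circCSPP1 replicate 3, the calls of STAT3 and STAT4 were lost, with adjusted p up to 0.073 and 0.084.

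Feedback inhibitors limit the same signal. Of 16, 15 were tested, 1 was higher and 3 were lower, against 4.69% and 6.66% of all tested genes, with a median log2 difference of 0.02. Over the alternatives 0 to 2 were higher and 1 to 3 lower. SOCS3, which STAT3 induces and which blocks its receptors, was at 35.11, 36.56 and 33.73 FPKM in lentivirus-NC and at 20.29, 17.27 and 18.04 FPKM in lentivirus-circCSPP1. The groups did not overlap, and SOCS3 fell with a log2 difference of -0.89 (standard error 0.0979, limma, adjusted p = 0.0037). CISH, a STAT5-induced inhibitor, and PTPN6, the phosphatase SHP-1, fell with log2 differences of -0.60 and -0.50 (adjusted p of 0.039 and 0.040), and SOCS7 rose by 0.38 (adjusted p = 0.042). SOCS1 was at most 0.53 FPKM and was not tested.

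**Figure D4:**
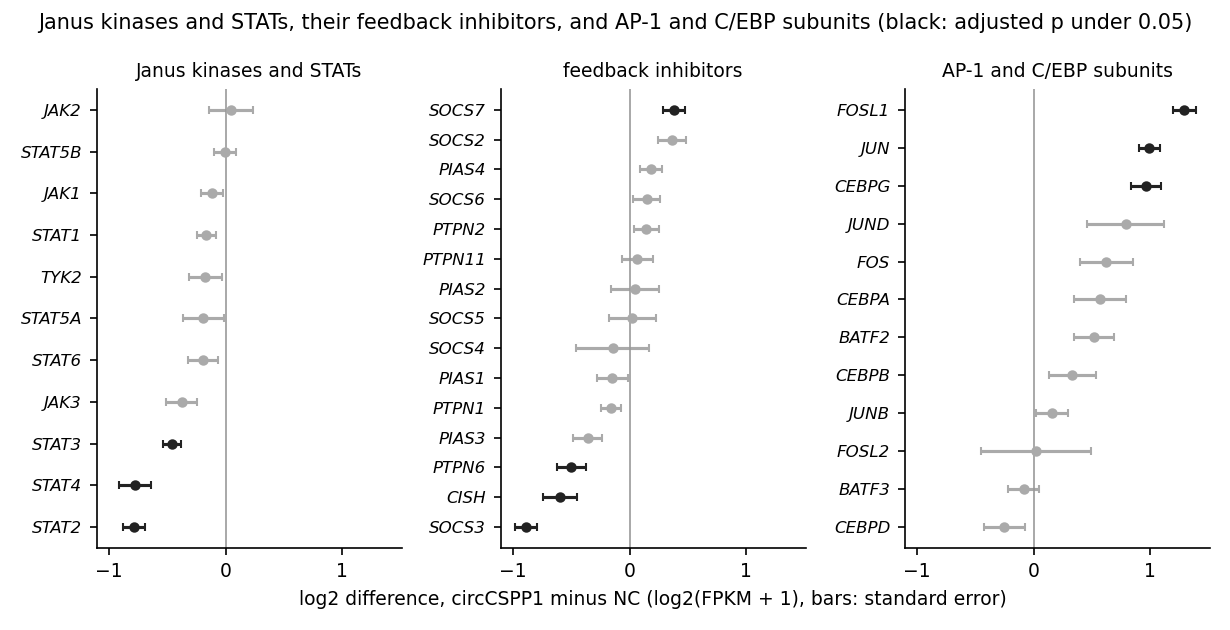
Log2 differences between lentivirus-circCSPP1 and lentivirus-NC on log2(FPKM + 1) for the tested Janus kinases and STATs, feedback inhibitors, and AP-1 and C/EBP subunits, with standard errors from limma; black points have an adjusted p under 0.05 and grey points do not. STAT2, STAT4, STAT3 and SOCS3 lie on the lower side and FOSL1, JUN and CEBPG on the higher side.

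Genes that STAT3 is known to induce did not move one way. Of 20, 16 were tested, 4 were higher and 3 lower, against 4.69% and 6.66% of all tested genes, with a median log2 difference of 0.20. The 3 that fell were MUC1, an epithelial mucin (23.0 ± 3.97 to 8.01 ± 1.45 FPKM; log2 difference -1.42, limma, adjusted p = 0.0046), SOCS3, and HIF1A, the hypoxia factor (-0.62, adjusted p = 0.021). The 4 that rose were CCND1, a cyclin of G1 (144 ± 10.6 to 240 ± 14.3 FPKM; log2 difference 0.74, limma, adjusted p = 0.0045), LCN2, a secreted iron-binding protein (0.59, adjusted p = 0.045), MCL1, an anti-apoptotic protein (0.55, adjusted p = 0.048), and IRF1, an interferon-induced factor (0.51, adjusted p = 0.039).

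Keratinocyte genes that the IL20 subfamily is known to induce were mostly silent in these cells. Of 14, 5 were tested, 2 were higher and 1 lower, against 4.69% and 6.66% of all tested genes, with a median log2 difference of 0.06. CXCL8, a chemokine for neutrophils, was at 50.89, 50.83 and 48.25 FPKM in lentivirus-NC and at 73.64, 122.06 and 90.40 FPKM in lentivirus-circCSPP1 (log2 difference 0.89, limma, adjusted p = 0.019), and LCN2 is the other that rose. S100A9, a subunit of calprotectin, fell from 9.16 ± 1.60 to 4.09 ± 0.212 FPKM (log2 difference -0.99, limma, adjusted p = 0.0068), and its partner S100A8 was listed at 0. The psoriasis keratins KRT6A, KRT6B and KRT16 were at most 1.05 FPKM.

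Proteins tied to the intracellular action of IL24 include chaperones, stress kinases and regulators of apoptosis. Of 14, 13 were tested, 4 were higher and 0 lower, against 4.69% and 6.66% of all tested genes, with a median log2 difference of 0.32. At an unadjusted p under 0.05 (limma), 6 were higher and 1 lower, beside 3477 of all 12322 tested genes in either direction. DDIT3, the stress factor CHOP, was at 24.40, 28.18 and 20.91 FPKM in lentivirus-NC and at 69.00, 84.85 and 75.27 FPKM in lentivirus-circCSPP1, and rose with a log2 difference of 1.61 (standard error 0.131, limma, adjusted p = 0.0015). GADD45B and GADD45A, growth arrest genes, rose with log2 differences of 0.94 and 0.63 (adjusted p of 0.0037 and 0.028), and MCL1 is the other. HSPA5, the chaperone that IL24 protein binds in the endoplasmic reticulum, was at 271 ± 3.32 and 230 ± 9.97 FPKM (SD, n = 3 in each group), a log2 difference of -0.23 (adjusted p = 0.067). It passed as lower under 5 of the 17 alternatives, namely no filter, quantile normalization, no moderation, the correction for GC content and length, and leaving out lentivirus-circCSPP1 replicate 1. EIF2AK2, the kinase PKR, had a log2 difference of -0.15 (adjusted p = 0.76).

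AP-1 and C/EBP factors are known regulators of IL24. Of 15 subunits, 12 were tested, 3 were higher and 0 lower in limma, against 4.69% and 6.66% of all tested genes, with a median log2 difference of 0.54. At an unadjusted p under 0.05 (limma), 7 were higher and 0 lower, beside 3477 of all 12322 tested genes in either direction. FOSL1, a FOS-like subunit, was at 62.00, 64.10 and 68.78 FPKM in lentivirus-NC and at 145.51, 180.45 and 156.54 FPKM in lentivirus-circCSPP1 (log2 difference 1.29, standard error 0.10, limma, adjusted p = 0.0013). JUN rose from 19.3 ± 0.773 to 39.3 ± 1.65 FPKM and CEBPG, which pairs with ATF4, from 23.6 ± 1.29 to 47.3 ± 7.09 FPKM (log2 differences 0.99 and 0.96, limma, adjusted p of 0.0019 and 0.0059). The windows before IL24 and IL20RB held no AP-1 letters. Such letters were in 1 window each of IL10, IL19 and IL22RA1, which were at 0 or did not pass. The IL10 and IL19 matches are the same bases, inside the span of IL10, read from opposite strands, and so are 1 site. A window of IL19 held the STAT letters and that of IL22RA1 the C/EBP letters. Elements outside these windows were not searched.

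The 3′ UTR of IL24 is 1154 nt long and holds the AU-rich letters ATTTA 3 times and the longer form TATTTAT 2 times. Such elements are bound by proteins that shorten or lengthen the life of cytokine mRNAs. One of them is shown in DNA letters, with the ATTTA in capitals.
IL24 AU-rich site: aactgaagttctATTTAtttgtgagactg
Of 19067 complete 3′ UTRs, 67.5% held ATTTA at least 1 time and 41.1% at least as often as IL24. TATTTAT occurred in 31.0% of them, and in 13.1% at least as often as in IL24. The silent genes IL10 and IL20 held ATTTA 8 times each, IL20RA 7 times, IL19 and IL10RB 1 time, and IL20RB and IL22RA1 0 times. The part of these elements in the levels was not tested. Of 18 proteins that bind or control such mRNAs, all were tested. In limma, 3 were higher and 0 lower, against 4.69% and 6.66% of all tested genes. The median log2 difference of the list was 0.10. At an unadjusted p under 0.05 (limma), 6 were higher and 0 lower, beside 3477 of all 12322 tested genes in either direction. DUSP1, a phosphatase that switches off p38, rose by 0.75 (adjusted p = 0.011), ZFP36L2, which destabilizes such mRNAs, by 0.40 (adjusted p = 0.042), and KHSRP, a decay factor, by 0.29 (adjusted p = 0.031), each on log2(FPKM + 1).

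Over these signalling, target and regulator lists 24 genes had an adjusted p under 0.05, and 10 of them kept it under every alternative run, namely STAT2, SOCS3, MUC1, CCND1, S100A9, DDIT3, GADD45B, FOSL1, JUN and CEBPG. The calls of STAT4, CISH, PTPN6, SOCS7, HIF1A, IRF1, MCL1, LCN2, CXCL8, GADD45A, KHSRP, DUSP1, ZFP36L2 and STAT3 were each lost under 4 or more of the 17 alternatives (16 for CISH), with adjusted p of at most 0.18 (limma). Leaving out lentivirus-NC replicate 1 or 2 or lentivirus-circCSPP1 replicate 3 ended each of these calls, as did leaving out lentivirus-NC replicate 3 for all but DUSP1. The lists were written from general knowledge with earlier results of these data known.

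The microRNA that the study places downstream of circCSPP1 is miR-520h, shown with its seed, bases 2 to 8, in capitals.
hsa-miR-520h: aCAAAGUGcuucccuuuagagu
The 3′ UTRs were searched for CACTTTG, which pairs with the whole seed, and ACTTTGA, which pairs with bases 2 to 7 and adds an A. A match to either was in the 3′ UTR of 2 of the 8 genes, beside 5526 of 19067 3′ UTRs. IL10 held CACTTTG, and IL10RB held ACTTTGA only. The 3′ UTRs of IL24 and IL20RB held 0 such matches.

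The 5 tested genes whose pattern was most like that of IL24, by the smallest root mean square difference over the 6 libraries of log2(FPKM + 1) centred on the lentivirus-NC mean, were STC2, TRIB3, MT1E, DUSP6 and SPRY4, out of 12321 compared. With groups this far apart, the measure mostly ranks genes by the size of their rise. STC2, the secreted glycoprotein stanniocalcin 2, differed by 0.357 and was at 81.0 ± 6.90 and 377 ± 14.5 FPKM (SD, n = 3 in each group). TRIB3, a pseudokinase, differed by 0.401. MT1E, a metallothionein whose fragments may be shared with near-identical copies, differed by 0.482. DUSP6, a phosphatase of ERK, and SPRY4, an inhibitor of receptor tyrosine kinase signalling, differed by 0.588 and 0.668. IL20RB came 17th, with a difference of 1.01.

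Markers of the epithelial state moved with the groups. Of 7 epithelial markers 6 were tested. Of these, 5 were lower and 1 higher in limma, against 6.66% and 4.69% of all tested genes. The list summed to between 3890 and 4050 FPKM in lentivirus-NC and between 3040 and 4030 FPKM in lentivirus-circCSPP1. KRT8 fell from 1110 ± 26.4 to 416 ± 38.3 FPKM and CDH1, which encodes E-cadherin, from 10.9 ± 0.953 to 3.01 ± 0.507 FPKM (SD, n = 3 in each group; log2 differences -1.42 and -1.58, limma, adjusted p of 0.00056 and 0.0016). KRT18, EPCAM and KRT19 fell as well, and KRT7 rose by 0.45 (adjusted p = 0.046). The calls of EPCAM, KRT19 and KRT7 were lost under 5, 5 and 8 of the 17 alternatives, and those of KRT8, CDH1 and KRT18 under 0. Of the 9 fibroblast and endothelial markers, COL1A1 was the only one tested and fell by 0.97 on log2(FPKM + 1) (adjusted p = 0.010), and the list summed to at most 5.01 FPKM. The part of these differences in the values of IL24 and IL20RB was not tested.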

How the data were processed

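Polyadenylated RNA of 6 DU145 libraries, 3 lentivirus-NC and 3 lentivirus-circCSPP1, was sequenced from both ends of each fragment. The authors deposited 1 table of FPKM values for 19727 genes, rounded to 2 decimals, and per the labels the genome build was hg38. The aligner, the annotation, the program that computed FPKM and the strandedness are not given in the sources used here. The extraction protocol in the labels speaks of adipose RNA, which goes against the cell line given by the other labels and by the study, and the samples are called DU145 here after those. FPKM is not a count, so no count model was used, and the value of a gene shifts when others take more of its library. Groups were taken from the labels, columns were matched by group and replicate number, and 0 columns were left unused.

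Depth, between 28800000 and 36600000 fragments per library, was estimated from short genes with low FPKM (1 transcript in GENCODE release 29, under 800 nt), whose products with length fell on whole multiples of 1 fragment within a tolerance of 0.15 for 93.2% to 100% of values, where 30% would by chance. Numbers of fragments per gene are approximate, because they assume the longest coding transcript.

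Values were taken to log2(FPKM + 1), a scale that understates changes of low genes. The 12322 genes that averaged 1 FPKM or more were tested, two-sided and without covariates, by limma 3.58.1 (R 4.3.3; lmFit, then eBayes with its trend option), and p-values were adjusted over all of them by the Benjamini-Hochberg method. The scripts were checked on simulated data. Coordinates, transcripts and 3′ UTRs came from GENCODE 29 by Ensembl identifier, and promoter and microRNA sequences from RefSeq (GRCh38.p14). All 8 members matched in both. Each gene's 3′ UTR is the longest among its complete coding transcripts.

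The members and the gene lists were chosen with earlier results of these data known. Named were the 8 members, of each list the genes with an adjusted p under 0.05 (at most 6, by size), the 5 tested genes most like IL24 and the genes within 500 kb of it. Other genes are named as members of a list or as neighbours. The 17 alternatives were a pseudocount of 0.1 or of 0.01, a minimum mean of 5 FPKM or none, TPM, median-ratio and quantile scaling, no moderation, eBayes with its robust option, a block for the replicate number, leaving out each library, and a loess correction for GC content and length, which was chosen after seeing the data.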

Additional observations from a re-analysis of the deposited data

How the results depend on the processing

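IL20RB kept its direction and an adjusted p under 0.05 (limma) under all 17 alternatives, with log2 differences of 1.23 to 1.35 when 1 library was left out. The number of tested members other than IL24 that passed was 1 each time. IL22RA1 stayed lower without passing, between -0.35 and -0.10, with no value at a mean of at least 5 FPKM, which it did not reach. IL10RB lay between -0.16 and 0.01 with 1 library left out and turned to 0.0118 without lentivirus-circCSPP1 replicate 1. The log2 difference of IL24 was 2.64 to 2.78 with 1 library left out, 2.88 with a pseudocount of 0.1 and 2.90 with one of 0.01, since a smaller pseudocount compresses low values less.

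The number of all tested genes with an adjusted p under 0.05, 1399 as reported, was 834 with no moderation and 3522 after the correction for GC content and length. With 1 library left out it lay between 293, without lentivirus-NC replicate 1, and 3514, without lentivirus-circCSPP1 replicate 1, with 309 without lentivirus-NC replicate 2, 404 without lentivirus-NC replicate 3 and 460 without lentivirus-circCSPP1 replicate 3; the cause was not tested. The share of higher genes among those called was 41.3%, and 51.6% after the correction for GC content and length. The median log2 difference of all genes stayed between -0.06 and 0.01 under every alternative. When 1 library was left out, the numbers of higher class II genes lay between 0 and 1, of lower Janus kinases and STATs between 1 and 5, of higher and lower feedback inhibitors between 0 and 1 and between 1 and 3, of higher keratinocyte genes between 0 and 2, of higher STAT3 targets between 1 and 4, of higher IL24 partners between 2 and 6, of higher regulators of AU-rich mRNAs between 0 and 6 and of higher AP-1 and C/EBP subunits at 3.

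Replicate numbers are shared between the groups, but the deviations of same-numbered libraries correlated across genes by only 0.073, 0.0065 and 0.057, so the numbers were not taken as pairs. With the replicate number as a block 923 genes passed and IL20RB had an adjusted p of 0.0079. Lentivirus-NC replicate 2 correlated best with lentivirus-circCSPP1 replicate 3, at 0.0090. Depth limits IL20RA, IL10, IL19 and IL20, for which no difference was detectable.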
